A study of Jaculus jaculus with 29 samples.

Results

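The gene Kl (Klotho) and 5 genes known from the choroid plexus, Ttr, Folr1, Clic6, Aqp1 and Otx2, were followed in the supraoptic nucleus of the jerboa Jaculus jaculus, a desert rodent. The 6 genes are a listed set among 29170 in the count table. Kl was chosen by its counts in Dehydrated against Control libraries, so its values in that contrast are a description. The other 5 were listed to see whether Kl moved with them from library to library. Of the 6, 4 passed the filter on low counts (Kl, Folr1, Aqp1 and Otx2) and Ttr and Clic6 did not, among 17558 genes that passed.

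Polyadenylated RNA of 29 punched samples of the nucleus was sequenced, 1 library per animal as far as the labels show. Control animals (n = 10) drank freely, Dehydrated animals (n = 10) went without water for 11 days, and Rehydrated animals (n = 9) went without it for 7 days and then drank freely for 3 days. All animals were singly housed at 25 °C on 12 hours of light with dry food, no strain, age or genotype is given in the labels, and the label gives 15 females and 14 males. Each sample held 12 bilateral punches of 1 mm, so each library mixes magnocellular neurons with glia, vessels and whatever lay beside the nucleus.

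Klotho is a membrane protein that pairs with an FGF receptor to form the receptor for the hormone FGF23, and its outer part is shed by membrane proteases such as ADAM10 and ADAM17. It is best known from kidney tubules and, in the brain, from the choroid plexus, the secretory epithelium of the ventricles that makes cerebrospinal fluid. The 5 companion genes serve that epithelium. Transthyretin (Ttr) is its secreted thyroxine carrier, Folr1 the folate receptor that moves folate into the fluid, Clic6 a member of the chloride intracellular channel family, Aqp1 a water channel, and Otx2 a homeobox transcription factor that the epithelium needs. They are used here as markers of that epithelium.

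Library depth was 10797577 to 18856620 counts. The libraries Control M01 and Control F03 stood apart from the rest, with 7.13% and 6.67% of their counts on unplaced contigs, against 0.385% to 1.59% in the other 27. Values that they moved by over 1.5 times are also given without them. Correlations within the Control group were not computed without both. The defining precursors of the nucleus were abundant: Avp, the vasopressin precursor, averaged 2090 CPM (counts per 1000000, scaled by the TMM factors) and Oxt, the oxytocin precursor, 839 CPM. Of 11 magnocellular genes 3 rose in Dehydrated against Control libraries (Avp by 1.81, Pdyn by 1.13 and Caprin2 by 0.98 on the log2 scale, adjusted p = 0.0388, 0.00369 and 0.0109 in edgeR's quasi-likelihood test). Over all genes 0.114% were called higher in that contrast.

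Kl was a low-abundance gene that was higher in the Dehydrated group. It is ENSJJAG00000004906, on the plus strand of chromosome 7 from 15131971 to 15189846 in the mJacJac1 assembly, with 12 exons in the counted model. Each library held 2 to 189 Kl counts, with a median of 25. In Control libraries it ran from 0.160 CPM (Control F03) through a median of 1.21 to 1.77 (Control F05). In Dehydrated libraries it ran from 1.04 (Dehydrated M02) through 2.73 to 10.6 (Dehydrated M05), and in Rehydrated libraries from 1.19 (Rehydrated F06) through 1.74 to 3.73 (Rehydrated F05). The groups overlapped: 7 of 10 Dehydrated libraries lay above the highest Control library and 3 lay among the Control values.

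The Dehydrated mean was 3.71 ± 3.00 CPM (SD, n = 10) against 1.09 ± 0.494 (SD, n = 10) in Control and 1.80 ± 0.764 (SD, n = 9) in Rehydrated libraries. The fitted log2 difference between Dehydrated and Control was 1.74 (SE 0.37), and the authors' deposited table gives 1.68 (SE 0.37). This is the contrast from which Kl was chosen, in which 0.125% of all tested genes were called, so nothing is read from it. The size leaned on Dehydrated M05, without which the Dehydrated mean was 2.94 ± 1.86 CPM (n = 9) and the log2 difference 1.42. Without Control M01 and Control F03 the difference was 1.51. The order of the 3 group means was Dehydrated, Rehydrated, Control, and in each neighbouring pair the groups overlapped.

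**Figure D1:**
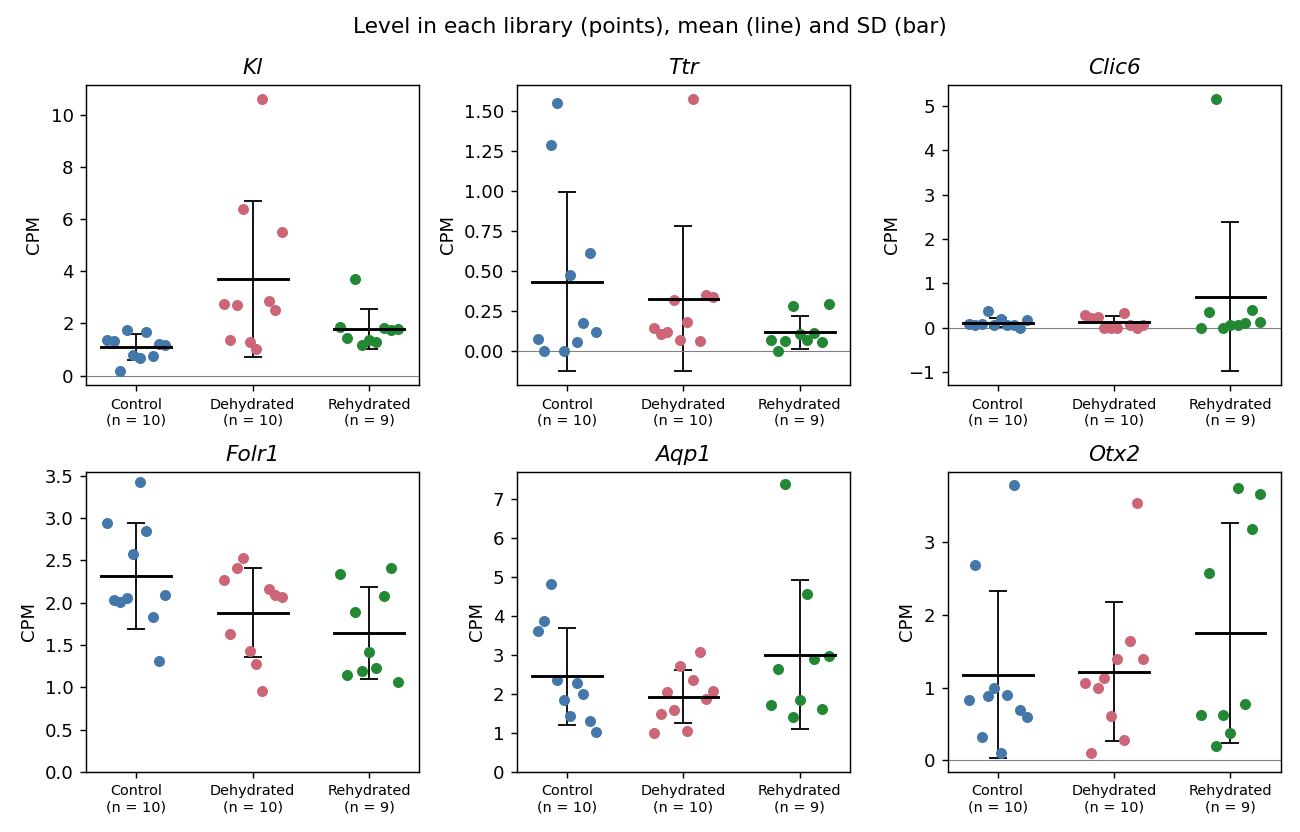
Level of Kl, Ttr, Clic6, Folr1, Aqp1 and Otx2 in CPM (linear axis) in each of 29 libraries, with the group mean (line) and SD (bar). Dehydrated Kl values spread up to 10.6 CPM, while Ttr and Clic6 sit near 0 apart from 3 and 1 libraries.

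In Rehydrated libraries the mean level of Kl lay between those of the other groups. These animals went without water for 7 days and the Dehydrated animals for 11, with no group taken at 7 days. The shorter time without water and the return of water therefore cannot be told apart. The Rehydrated libraries exceeded Control libraries by 0.70 (SE 0.38) on the log2 scale, adjusted p = 0.698 in edgeR's quasi-likelihood test, with a 95% interval of -0.05 to 1.45. The difference was 0.45 without Rehydrated F05 and 0.48 without Control M01 and Control F03. Of the 9 Rehydrated libraries 4 lay above the highest Control value and 8 above the Control median. No gene was called in that contrast (0% of all tested genes, 1313 of them with an unadjusted p under 0.05, and 18 called by DESeq2). Dehydrated exceeded Rehydrated libraries by 1.04 (SE 0.37, interval 0.32 to 1.76), adjusted p = 1.000 in edgeR, where 0.0228% of genes were called. That contrast shares the Dehydrated libraries with the one used to choose Kl. Males by label differed from females by less than the spread between libraries (0.14, interval -0.45 to 0.74, adjusted p = 0.993 in edgeR, 0.0342% of genes called); the difference was 0.30 without Control M01 and Control F03 and -0.12 without Dehydrated M05.

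Transthyretin, a major secreted product of choroid plexus epithelium, was close to absent. Ttr (ENSJJAG00000034984, chromosome 15 from 32761797 to 32770916, plus strand) had 129 counts over all 29 libraries, and 26 of them held fewer than 10. Control libraries ran from 0 through a median of 0.146 to 1.55 CPM, Dehydrated libraries from 0.0654 through 0.162 to 1.58, and Rehydrated libraries from 0 through 0.0688 to 0.296. The 3 high libraries were Dehydrated M05 with 28 counts (exact Poisson interval 18.6 to 40.5), Control F05 with 21 and Control F03 with 16, and they held 50.4% of all Ttr counts. Such intervals cover counting error only. Libraries with no Ttr count (3 of 29) allow a level of up to 0.173 to 0.201 CPM, from 3 counts of their totals.

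Dehydrated M05 was thus highest for both Kl and Ttr, but Control F03 was among the 3 highest for Ttr and lowest of all for Kl, with 2 counts (interval 0.242 to 7.22). Per length of the counted model, Kl exceeded Ttr in 25 of 29 libraries, all but Control F03, F05, M01 and M05. In a fit without the count filter Ttr differed by -0.47 (SE 0.67) between Dehydrated and Control libraries, a description. It differed by -1.90 (SE 0.76, interval -3.38 to -0.42, adjusted p = 0.548 in edgeR) between Rehydrated and Control libraries and by 1.43 (interval -0.04 to 2.90, adjusted p = 0.938) between Dehydrated and Rehydrated libraries. The Control mean fell from 0.434 to 0.188 CPM without Control F03 and Control F05.

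Clic6 was as scarce and rested on 1 library. The counted model (ENSJJAG00000035489, chromosome 5 from 159086076 to 159100088, plus strand) covers 28.9% of the RefSeq gene, so its level is that of the part counted. Of its 134 counts 79 came from Rehydrated F05 (interval 62.5 to 98.5), and no other library held more than 7. Its mean was 0.114 CPM in Control, 0.119 in Dehydrated and 0.694 in Rehydrated libraries, and 0.136 in the last without Rehydrated F05. In the fit without the filter the Rehydrated against Control difference was 2.20 (SE 0.88, adjusted p = 0.548 in edgeR). Rehydrated F05 was also highest of its group for Kl (57 counts) and for Aqp1 (113 counts), held 1 Ttr count, and was lowest of its group for Otx2 (3 counts). In that library Ttr was near its group median (0.0654 against 0.0688 CPM), and Folr1 was above its own (1.90 against 1.42 CPM).

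**Figure D2:**
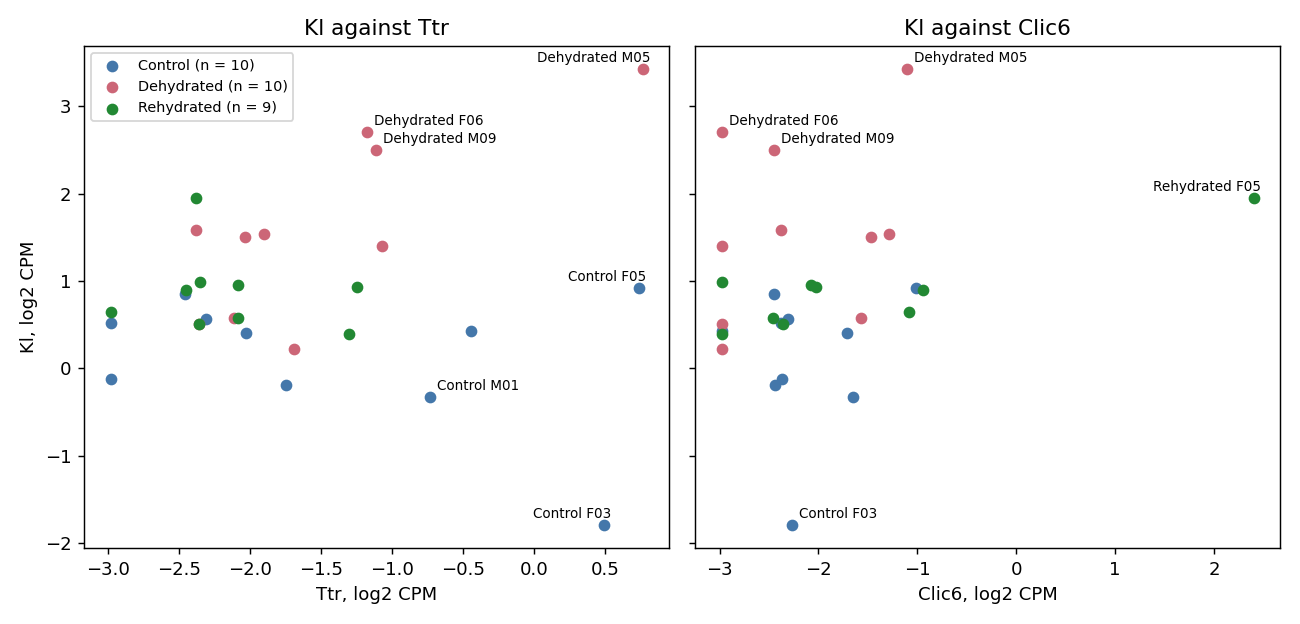
Log2 CPM of Kl (vertical) against Ttr (left) and Clic6 (right) in each library, coloured by treatment. Dehydrated M05 is high for Kl and Ttr, Control F03 is high for Ttr and lowest for Kl, and Rehydrated F05 is alone at high Clic6.

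The other 3 companions were present in every library but at low levels. Folr1 (ENSJJAG00000019600, chromosome 3 from 170634822 to 170646230, minus strand) ran from 1.31 through a median of 2.07 to 3.43 CPM in Control, from 0.957 through 2.08 to 2.53 in Dehydrated and from 1.07 through 1.42 to 2.41 in Rehydrated libraries. It was lowest of all libraries in Dehydrated M05, the library with the most Kl. Its Dehydrated against Control difference was -0.29 (SE 0.21, interval -0.70 to 0.12). The Rehydrated against Control difference was -0.49 (SE 0.22, interval -0.91 to -0.07, adjusted p = 0.625 in edgeR).

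Aqp1 (ENSJJAG00000017823, chromosome 16 from 43793657 to 43805348, plus strand) averaged 2.45 ± 1.25 CPM (SD, n = 10) in Control, 1.92 ± 0.681 (n = 10) in Dehydrated and 3.01 ± 1.91 (n = 9) in Rehydrated libraries. Vessels and blood cells also hold this water channel. Its Dehydrated against Control difference was -0.35 (SE 0.31), or -0.18 without Control F03, and Rehydrated against Control libraries differed by 0.29 (SE 0.31, adjusted p = 0.834 in edgeR), which was -0.06 without Rehydrated F05 and 0.47 without Control F03. Blood genes had unequal group medians with overlapping ranges. The summed level of the 3 measured of 6 (Hba1, Alas2 and Slc4a1) had a median of 203 CPM in Control (range 114 to 807), 56.6 in Dehydrated (31.8 to 188) and 172 in Rehydrated libraries (34.3 to 992). None of the 3 was called, and the part of blood in the Aqp1 values was not tested.

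Otx2 (ENSJJAG00000026027, chromosome 7 from 111508439 to 111517962, minus strand) spread most within each group among the 4 tested members on the log2 scale. It ran from 0.0952 through 0.856 to 3.79 CPM in Control, from 0.105 through 1.10 to 3.55 in Dehydrated and from 0.196 through 0.768 to 3.75 in Rehydrated libraries. The group difference was -0.0048 (SE 0.48) for Dehydrated against Control and 0.40 (SE 0.55, adjusted p = 0.874 in edgeR) for Rehydrated against Control libraries. Single libraries moved both values: the first ran from -0.27 without Dehydrated M08 to 0.34 without Control M04, and the second from 0.14 without Rehydrated F04 to 0.79 without Control M04. Without Control M01 and Control F03 they were -0.31 and 0.058. Its level in Dehydrated M05 was among the lower ones, at 5 counts, while Dehydrated M08 held 61.

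**Figure D3:**
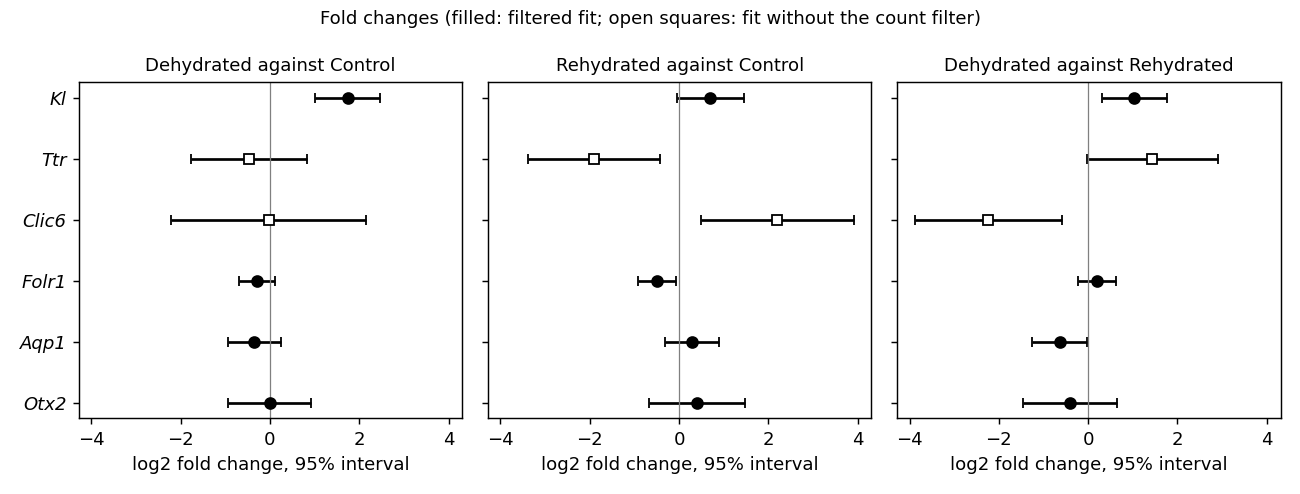
Log2 fold changes with 95% intervals (horizontal) for the 6 genes in 3 comparisons, from the filtered fit (filled circles) or, for Ttr and Clic6, from the fit without the count filter (open squares). In Dehydrated against Control libraries, the contrast that chose it, Kl lies at 1.74 and the 5 companions between -0.47 and -0.0048.

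Per length of transcript, all 6 genes were near the bottom of the tested range. Over all libraries, mean FPKM (CPM divided by the model's length in kilobases) of Folr1 lay above 11.5% of tested genes, that of Kl above 3.54% and that of Ttr above 0.325%. In Control libraries the order of mean FPKM was Folr1 (1.69), Aqp1 (1.22), Otx2 (0.492), Kl (0.264), Ttr (0.261) and Clic6 (0.0640). The means of Kl and Ttr were level there, but their Control medians were 0.292 and 0.0878 FPKM. In Dehydrated libraries the order of mean FPKM was Folr1 (1.38), Aqp1 (0.956), Kl (0.899), Otx2 (0.509), Ttr (0.196) and Clic6 (0.0668). In Rehydrated libraries it was Aqp1 (1.495), Folr1 (1.203), Otx2 (0.732), Kl (0.436), Clic6 (0.391) and Ttr (0.0705). Among neighbours in these orders the gap exceeded both SDs for Aqp1 and Otx2 in Control and for Folr1 and Aqp1 in Dehydrated libraries, and in no other pair. In bulk tissue, fewer cells of a type and less RNA per cell cannot be told apart.

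Whether Kl followed the choroid plexus genes between libraries was tested on log2 CPM after the treatment means were removed, so that the difference used to choose Kl had no part in it. Over 29 libraries Pearson's r with Kl was 0.13 for Ttr (Spearman's rho 0.06), 0.12 for Folr1 (0.29), 0.35 for Clic6 (0.24), 0.12 for Aqp1 (0.27) and 0.02 for Otx2 (-0.0049). In a permutation test of Kl within treatments, adjusted over the 5 genes, p was 0.117 for Clic6 (0.0235 unadjusted), 0.701 for Ttr, Folr1 and Aqp1, and 0.899 for Otx2. For rho the adjusted permutation p was 0.366 for Folr1, Clic6 and Aqp1, 0.946 for Ttr and 0.982 for Otx2. No relation passed the threshold over all libraries. Among all tested genes r with Kl had a median of 0.02, and 95% lay between -0.35 and 0.36, a range that held all 5 values.

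Single libraries set these values. Without the 2 libraries farthest from the median of the companion gene, r became -0.26 for Ttr, 0.41 for Folr1, 0.22 for Clic6, 0.23 for Aqp1 and -0.14 for Otx2. Ttr went to -0.10 without Dehydrated M05 and to 0.41 without Control F03. Without Control M01 and Control F03, the libraries with the most counts on unplaced contigs, r was 0.46 for Ttr and 0.42 for Clic6 (permutation p = 0.0370 for each, adjusted over the 5 genes), and 0.33 for Aqp1 (adjusted permutation p = 0.113). When Dehydrated M05 was left out as well, these were 0.26 and 0.37 (adjusted permutation p = 0.158 and 0.109), and Folr1 stood at 0.53 (adjusted permutation p = 0.0156). So which companion passed the threshold changed with which of 3 libraries were left out, choices made after the values were seen.

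Within treatments the picture differed from gene to gene. In Dehydrated libraries Kl and Ttr had r = 0.77 (rho 0.44), with a permutation p of 0.00665 that became 0.0997 when adjusted over 15 relations, and r was 0.66 without Dehydrated M05 and Dehydrated M08. Behind this lie 1 to 6 Ttr counts in each library other than Dehydrated M05. In Control libraries the same pair had r = -0.35 (adjusted permutation p = 0.636) and in Rehydrated libraries -0.19 (adjusted exact permutation p = 0.830). The Control value includes Control F03, with 16 Ttr counts and 2 Kl counts, and was not computed without it and Control M01. A difference in r between treatments was not tested. Dehydrated Kl and Folr1 went from 0.04 to 0.78 once Dehydrated M05 and Dehydrated M02 were left out. In Rehydrated libraries Clic6 had r = 0.84 (exact permutation p = 0.0300, adjusted 0.225), which was 0.09 without Rehydrated F05 and Rehydrated M06.

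**Figure D4:**
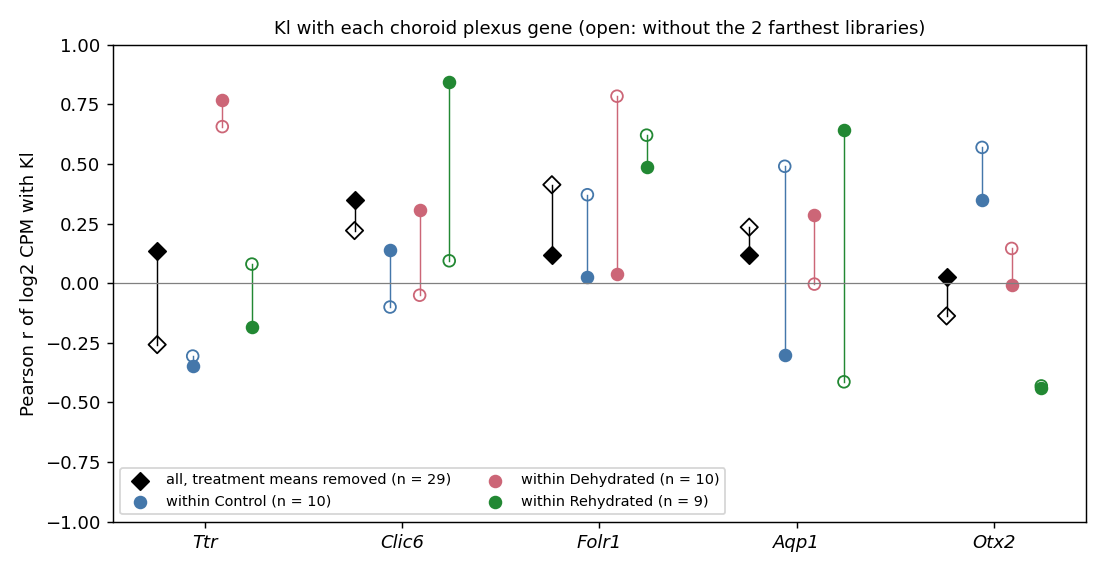
Pearson r of log2 CPM between Kl and each companion gene, over 29 libraries with treatment means removed (diamonds) and within each treatment (circles), with open symbols for the value without the 2 farthest libraries. Clic6 in Rehydrated libraries moves from 0.84 to 0.09 and Folr1 in Dehydrated libraries from 0.04 to 0.78.

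No common pattern was seen among the 5 companions, though this was not tested. Ttr and Clic6 had median counts of 2 and 1, so a relation could be hidden by counting error. With treatment means removed, r over their 10 pairs ran from -0.35 (Ttr with Folr1) to 0.35 (Clic6 with Aqp1), given as a description of libraries that share depth and scaling. The 3 Dehydrated libraries with the most Kl, M05, F06 and M09, held 28, 5 and 6 Ttr counts and 6, 0 and 1 Clic6 counts.

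A wider list of 25 choroid plexus genes, 24 of them in the count table and 18 tested, held 0 calls in the 4 comparisons. Of all tested genes 0.125%, 0%, 0.0228% and 0.0342% were called in Dehydrated against Control, Rehydrated against Control, Dehydrated against Rehydrated and the sex label, so 0 of 18 is near the background. The same holds for the 0 calls of the other lists. The median log2 difference of the choroid plexus list was -0.02 for Dehydrated against Control libraries, beside -0.0030 over all tested genes. Its summed level overlapped between groups, at 495 to 842 CPM in Control, 621 to 808 in Dehydrated and 635 to 918 in Rehydrated libraries. Enpp2, Htr2c and Trpm3, which other brain cells also express, made up 79.2% of that sum. Levels within the list ranged widely. The 6 genes below the filter were Ttr, Clic6, Kcne2 (a potassium channel subunit, 37 counts in all and none in 23 libraries), Tmem72, Lmx1a and Steap1 (152, 189 and 152 counts). Others were well counted: Slc13a4 averaged 10.5 FPKM, Igfbp2 8.99, Prlr 8.37, Slc29a4 8.19, Ecrg4 5.37, F5 4.18 and Slc4a5 1.33. Which cells these counts came from was not tested, so the levels do not measure choroid plexus in the punches. Kcnj13, a potassium channel of the same epithelium, averaged 1.99 FPKM, but its gene overlaps a more highly counted gene on the other strand, as do Steap1 and Slc4a5, and the counts do not separate strands. Over the 24 genes r with Kl ran from -0.21 to 0.35 with a median of 0.11.

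Of 14 genes of ependymal cells, which line the ventricle, 12 were tested and 0 were called. Of those 12, 11 were higher than in Control in both Dehydrated and Rehydrated libraries, with medians of 0.25 and 0.64 on the log2 scale over the 12 beside -0.0030 and 0.0030 over all tested genes; Tekt1, Foxj1, Rsph1 and Hydin had the most CPM. Their summed level ran from 56.2 to 106 CPM in Control, from 61.4 to 160 in Dehydrated and from 61.4 to 180 in Rehydrated libraries, and r of its log2 with Kl was 0.07. In the Dehydrated group the ependymal sum was lowest in Dehydrated M09 (Kl 5.53 CPM) and highest in Dehydrated F03 (Kl 2.77 CPM). Dehydrated M05 and Dehydrated F06, the other libraries with the most Kl, lay between these, as every other library of the group must. The part of ependymal cells in the Kl values was not tested. Tested tanycyte (7), fibroblast (12) and kidney tubule (4) genes also held 0 calls.

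The levels of genes of the klotho family and of the related FGF pathways are given as a description. Their lists are small beside a share of 0.125% called over all genes. Klb, the coreceptor for FGF21 and FGF19, had 3.18 CPM in Control, 4.00 in Dehydrated and 3.32 in Rehydrated libraries (Dehydrated against Control 0.33, adjusted p = 0.830 in edgeR), and Lctl, a further family member, 4.26, 3.79 and 3.66 (-0.18, adjusted p = 0.846). Among the endocrine ligands Fgf23, the hormone klotho binds, had 85 counts in all and none in 9 libraries, Fgf21 had 10 counts, and Fgf19 averaged 5.49 CPM. Of these Fgf19 alone passed the filter (-0.27, adjusted p = 0.821 in edgeR).

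Levels differed widely between the FGF receptor genes. Fgfr1, Fgfr2 and Fgfr3 averaged from 19.5 (Fgfr2) to 58.7 FPKM (Fgfr3), against 0.536 for Kl, while Fgfr4 had 60 counts in all. Of 4 tested receptor genes, Fgfrl1 included, 0 were called, and their Dehydrated against Control log2 differences ran from -0.12 to 0.0031. The sheddases Adam10, Adam17, Bace1 and Bace2 averaged 36.1, 11.6, 26.9 and 3.08 FPKM and differed by -0.18 to 0.10, with 0 of 4 called.

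Downstream, 13 tested genes of FGF signal transduction and feedback held 0 calls in either direction, with a median Dehydrated against Control difference of -0.0073 beside -0.0030 over all genes. The adaptor Grb2 and the phosphatase Ptpn11 were the most abundant by CPM, and the FGF feedback genes Spry2, Dusp6 and Etv5 differed by -0.11, -0.24 and 0.32 (adjusted p = 0.783, 0.669 and 0.545 in edgeR). Of 10 tested genes of phosphate, calcium and vitamin D handling 0 were called (median 0.05), and of 13 tested partners of klotho outside the FGF pathway 0 were called (median 0.07). Levels of the phosphate exporter Xpr1 and of the transporters Slc20a1 and Slc20a2 differed by 0.11, 0.0022 and 0.06.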

How the data were processed

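RNA-seq was made by the authors from punches of the supraoptic nucleus. Per the file headers, the authors counted whole fragments over genes with featureCounts 1.6.2, paired-end and without a strand option, using Ensembl gene models for mJacJac1, and deposited these raw counts, so reads of overlapping or antisense genes are not told apart. The submitters' processing notes list FastQC and DESeq2, and no aligner is named in the labels or headers. The authors' deposited tables hold log2 fold changes, their standard errors and adjusted p-values for 17583 genes; 56 columns of values per library in them were not used. Gene lengths are those in the count file.

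The authors' tables name Kl, Folr1 and Aqp1. Otx2, which they list without a name, and Ttr and Clic6, which they do not list, were named from a RefSeq table of the same assembly by overlap of gene spans, at a minimum share of 0.5 that Clic6 did not reach. The members and lists were chosen with earlier results of these data known. Named genes are the 6 members, every tested gene of the klotho, ligand, receptor and sheddase lists, list genes called, up to 4 of highest CPM in each list, and the 8 with the highest r with Kl and with Ttr. Kcnj13, Igfbp2, Prlr, Slc29a4, Ecrg4, F5, Slc4a5, Kcne2, Tmem72, Lmx1a, Steap1, Spry2, Dusp6, Etv5, Xpr1, Slc20a1 and the untested ligands and receptor were added after their values were seen.

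The test was that of edgeR 4.0.16 (R 4.3.3), with filterByExpr (11612 genes with 0.126% of counts removed), TMM scaling and a robust quasi-likelihood fit of treatment and sex label over 29 libraries (25 residual degrees of freedom), Benjamini-Hochberg adjustment and a threshold of 0.05. The interval of a fold change is its 95% interval, unadjusted. Log2 CPM used a prior count of 2. Correlations used two-sided permutation tests in scipy 1.17.1 and numpy 2.4.6 with 100000 resamples, and exact enumeration for 9 libraries. Groups come from the labels. The sex label of 3 libraries differs from the letter in the library name, and the label was used. P-values measure the spread between these samples. Same-numbered libraries of different treatments had r from -0.12 to 0.11 (19 pairs, 2 of them over 0.1). Of 261 differently numbered pairs, 16 were over 0.1. No pairing by number was seen, though such values cannot exclude one, and the libraries were taken as unpaired. The alternatives were DESeq2 1.42.0, other scalings, covariates and filters, and each library left out. The scripts were tested on simulated data.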

Additional observations from a re-analysis of the deposited data

Results flagged for a closer look

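In 5 of 18 combinations of gene and treatment, 1 library lay farther from the others than Dixon's test allows at its 95% level. Chance alone flags about 1 in 20 where values are normally distributed. These were CPM of scarce genes on the linear scale, so that rate need not hold here. Kl reached 3.73 CPM in Rehydrated F05, where the next library of its group had 1.86. Ttr reached 1.58 CPM in Dehydrated M05, the library with the most Kl, and 0.349 in the next. Clic6 was 0.368 CPM in Control F05 and 5.16 CPM in Rehydrated F05, with 0.190 and 0.392 in the next libraries. Otx2 was 3.55 CPM in Dehydrated M08 and 1.64 in the next. No explanation of these values was tested.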

How the results depend on the processing

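Of the other settings tried, 11 for each treatment comparison, none turned the direction of Kl. Its Dehydrated against Control difference ran from 1.51 to 2.12, and over 29 fits that left out 1 library each from 1.42 to 1.86. Kl was chosen from that contrast and these fits reuse its libraries, so the kept direction is a description and no support. The adjusted p by which Kl had been called stayed under 0.05 in 6 of those 11 settings and in 4 of the 29 fits. With log2 CPM of Ttr as a covariate, a gene with under 10 counts in 26 libraries, the difference was 1.603 and the call was lost. The cause of each change below was not tested unless it follows from fewer samples or genes.

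For Dehydrated against Control, DESeq2 called 39 genes in place of 22, the 2 groups alone 11, the fit with a replicate block 12, and the fit without Control M01 and Control F03 12. DESeq2 called 18 for Rehydrated against Control in place of 0. For Dehydrated against Rehydrated it called 13 in place of 4, the 2 groups alone gave 1, and Clic6 as a covariate 7. For the sex label DESeq2 called 10 in place of 6 and no filter 16. With 1 library left out, the 3 treatment counts ran from 10 to 27, 0 to 2 and 2 to 9. The replicate block gave Kl 2.12, and no pairing by sample number was seen.

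Without Control M01 and Control F03, the sex difference of Folr1 was -0.015 and of Aqp1 -0.052, and r with Kl was 0.46 for Ttr, 0.42 for Clic6 and -0.17 for Otx2; with Dehydrated M05 out as well, Folr1 had 0.53 and Otx2 -0.039. Without the 2 farthest libraries Ttr had -0.26 and Otx2 -0.14. With no treatment means removed Folr1 had -0.091 and Aqp1 -0.017. With sex means removed too, Aqp1 had -0.016 and Otx2 -0.077, and a prior count of 5 gave Otx2 -0.014. Leaving out 1 library each, r ran from -0.10 to 0.41 for Ttr, 0.04 to 0.39 for Folr1, 0.22 to 0.41 for Clic6 (adjusted p = 0.0415 by permutation without Dehydrated F06), -0.013 to 0.35 for Aqp1 and -0.079 to 0.16 for Otx2. Otx2 in Dehydrated against Control ran from -0.27 to 0.34 in that way, and from -0.31 to 0.18 over the 11 settings. Other differences that changed sign with 1 library out ran from -0.12 to 0.30 (Kl), -0.025 to 0.10 (Folr1) and -0.10 to 0.26 (Aqp1) for the sex label, and from -0.055 to 0.47 for Aqp1 in Rehydrated against Control. Ttr and Clic6, with 129 and 134 counts, limit any statement on them.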

Other observations

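The genes whose log2 CPM was most like that of Kl over the 29 libraries, treatment means removed, were not choroid plexus genes of the list. Among 12148 genes that have a symbol and average 1 log2 CPM or more, the highest r was 0.70 for Pafah2, a platelet-activating factor acetylhydrolase. Ttr, Clic6, Otx2, Folr1 and every list gene below the count filter were too scarce to be ranked, so their absence was fixed beforehand. Fgd6, Armcx3 and Rbm20 followed at 0.58, Fan1 had 0.56, Cdkl4 0.54, and Fam111a and Sertm1 0.52. None of the 8 was called in Dehydrated or Rehydrated against Control libraries, where 0.125% and 0% of all tested genes were called. Pafah2 differed by 0.12 (adjusted p = 0.923 in edgeR) in the first. The 8 most like Ttr were other genes: Kcnmb2, a subunit of a calcium-activated potassium channel, at 0.61, Zmat5 at 0.60, Tmem70 and Pld6 at 0.58, Cdkn3, Mcu and Xxylt1 at 0.56 and Dnajc17 at 0.55. By r with Kl, Clic6 would stand in place 507 of 17557 tested genes, Ttr in place 4524 and Otx2 in place 8497. These are the extremes of many correlations and carry no test.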
